A study of Mus musculus with 22 samples.

Results

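The genes described here encode the subunits of the mitochondrial respiratory chain and ATP synthase, with a few of their assembly factors. They were chosen by symbol: names that start with Nduf (complex I), Sdh followed by a, b, c or d (complex II), Uqcr (complex III), Cox4, Cox5, Cox6, Cox7 or Cox8 (complex IV) or Atp5 (ATP synthase), with at least 1 CPM (the count scaled to the size of its library) in at least 5 libraries. Of 24091 gene symbols in the table, 97 had such a name and 88 also passed the CPM minimum. By role, these 88 genes were 74 subunits and 14 assembly factors or related symbols.

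RNA was sequenced from 22 libraries of donor T cells taken from mice after a haematopoietic cell transplant (HCT). Per the labels' protocols, wild-type C57BL/6 donors gave the spleen and marrow cells, and the recipients were wild-type BALB/c mice after lethal irradiation. Recipients were dosed on alternate days between day 0 and day 6, either with IgG as control or with anti-IL-2, a monoclonal antibody to that cytokine. On day 7, CD4 and CD8 T cells of donor type were sorted from spleen and from colon, which the labels call gut, so every group shares the transplant, the irradiation and the strains. The 8 groups of cell type, tissue and treatment held 3 libraries each, 1 in each of the batches that the labels name 181201, 181212 and 190306, except that the gut IgG groups held 2 libraries and had none in batch 181201. IL-2 is a growth factor of activated T cells, and the series set out to examine its pathway in these cells with and without the antibody.

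Oxidative phosphorylation runs in the inner mitochondrial membrane. Complexes I and II take electrons from NADH and succinate, complex III hands them to cytochrome c, and complex IV passes them to oxygen. Complexes I, III and IV pump protons as they do so, and ATP synthase uses the returning protons, which pass through its membrane part (Fo), to make ATP in its catalytic head (F1). T cells that are activated raise both glycolysis and mitochondrial respiration, and complex II is also an enzyme of the TCA cycle. The chain genes of the mitochondrial genome itself were not analysed here, so all 88 genes are nuclear.

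Library totals ran from 14628806 to 24518362 counts. Markers matched the labelled cell types: Cd4 summed to between 1800 and 2610 CPM in the CD4 libraries and between 0.321 and 7.21 CPM in the CD8 libraries, while Cd8a and Cd8b1 together ran from 1740 to 3240 CPM in CD8 and from 8.65 to 15.5 CPM in CD4 libraries. All 4 markers of gut T cells were higher and all 4 lymphoid homing markers lower in gut than in spleen, in both cell types. The description field of the 5 CD8 IgG libraries names the other tissue, and the tissue of their source name was used. Macrophage markers summed to 219 CPM in 1 anti-IL-2 library of spleen CD4 cells and to less in the other 21 libraries. B cell, erythroid and muscle markers reached at most 18.7, 31.4 and 6.08 CPM in a library. The labels do not say whether libraries came from separate animals or pools, so every p-value measures the spread between these libraries only.

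The 88 genes took from 0.586% to 0.855% of the counts of a library. Summed over the genes, the level was 6311 ± 565 CPM in spleen CD4 cells (SD, n = 6), 7675 ± 527 in spleen CD8 cells (n = 6), 6850 ± 593 in gut CD4 cells (n = 5) and 7990 ± 464 in gut CD8 cells (n = 5). Spleen CD4 libraries ran from 5613 to 7224 CPM and spleen CD8 libraries from 7039 to 8495 CPM, so the extremes of the groups overlapped, although the CD8 library was the higher one in the plot of summed levels wherever batch, tissue and treatment were matched. In bulk RNA a lower level per cell and fewer cells that express a gene cannot be told apart.

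**Figure D1:**
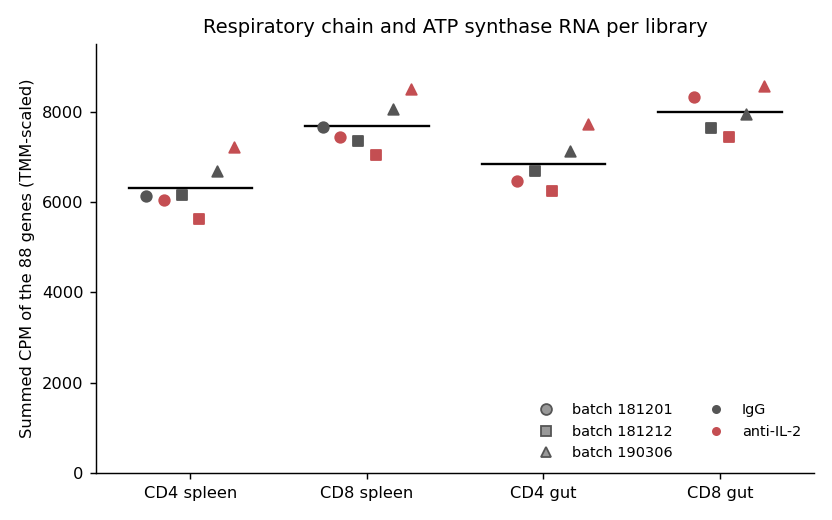
Summed CPM of the 88 genes (y axis, scaled by TMM) in each of the 22 libraries, by cell type and tissue; shape marks the batch, colour the treatment and the line the mean. CD8 means (7675 in spleen, 7990 in gut) lie above CD4 means (6311 and 6850), and in each population the highest library is the anti-IL-2 library of batch 190306.

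Within the complexes the levels spanned a wide range. Per kilobase of exon, the highest mean over the 22 libraries was that of Atp5a1 at 260 CPM per kb, the alpha subunit of the F1 head. It was followed by Cox4i1 at 188, the regulatory subunit IV of cytochrome c oxidase, and by Atp5b at 184, the catalytic beta subunit. The complex IV subunits Cox6b1 (172), Cox6a1 (168) and Cox8a (140 CPM per kb) came next. Lengths were the union of all annotated exons of a gene. For Atp5b this was 4237 bases, against 1916 in its longest coding transcript, and for Atp5a1 3135 against 2674. The order therefore depends on the length used.

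At the other end, Cox7c and Atp5l stood just inside the CPM minimum, which they met in 8 and 10 libraries, with mean levels of 0.922 and 0.923 CPM, and Sdhaf3 met it in 21 libraries. The other 85 genes met it in all 22. Just outside were Cox6b2, Cox7a1 and Atp5g2, with highest values of 0.874, 0.787 and 0.653 CPM. The remaining 6 genes outside it were Cox4i2, Cox6a2, Cox7b2, Cox8b, Cox8c and Ndufa4l2, of which Cox7b2 and Cox8c had no count in any library. Several of these are isoforms known from lung, muscle, heart or testis.

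Some low subunits share sequence with other genes. Shares were counted in the longest protein-coding GENCODE transcript of each gene, with matches to other genes on either strand. Of its 36-base stretches, Atp5l shared 85.3% with another gene, Ndufb4 37.9%, Ndufs5 34.7%, Cox7c 29.4%, Atp5g1 13.8% and Ndufab1 12.9%. These were the 6 subunits with a mean under 5 CPM, although Cox7c, Atp5l and Atp5g1 encode stoichiometric parts of their complexes. They were 6 of 32 subunits that shared from 10% to 90%, and others of the 32 had high levels, such as Atp5h (56.3% shared, 51.4 CPM) and Atp5f1 (44.6% shared, 114 CPM). Of the 42 subunits that shared 10% or less, none had a mean under 5 CPM. How the counting treated reads with more than 1 match is not given in the sources used here, so the levels and differences of these 6 genes are uncertain.

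The clearest difference lay between the cell types. CD8 cells held more respiratory chain and ATP synthase RNA than CD4 cells in both tissues, by a median of 0.25 on the log2 scale in spleen and 0.23 in gut over the 88 genes, against -0.01 and 0.01 over all genes tested. In spleen, 70 of the 88 genes were higher in CD8 cells and 5 lower (edgeR quasi-likelihood test within batch and treatment, Benjamini-Hochberg adjusted p under 0.05), where 29.2% of the 12841 genes tested were higher and 28.9% lower (58.1% in either direction). In gut, 61 were higher and 1 lower, against 23.1% and 22.9% of all genes (46% in either direction). Each of the 61 genes higher in gut was also higher in spleen. Counted library by library, 56 genes were higher in CD8 cells in all 11 matched pairs of both tissues and 2 were lower in all of them, whereas 19% of all genes tested were higher in all 11 and 19% lower.

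Subunits and assembly factors differed in these counts. Among the 74 subunits, 66 were higher and 1 lower in CD8 cells of the spleen, and 59 were higher and 0 lower in the gut, with medians of 0.28 and 0.27. Among the 14 assembly factors and related symbols, 4 were higher and 4 lower in spleen and 2 higher and 1 lower in gut, with medians of 0.08 and 0.05. The difference between the subunits and the assembly factors was itself not tested.

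**Figure D2:**
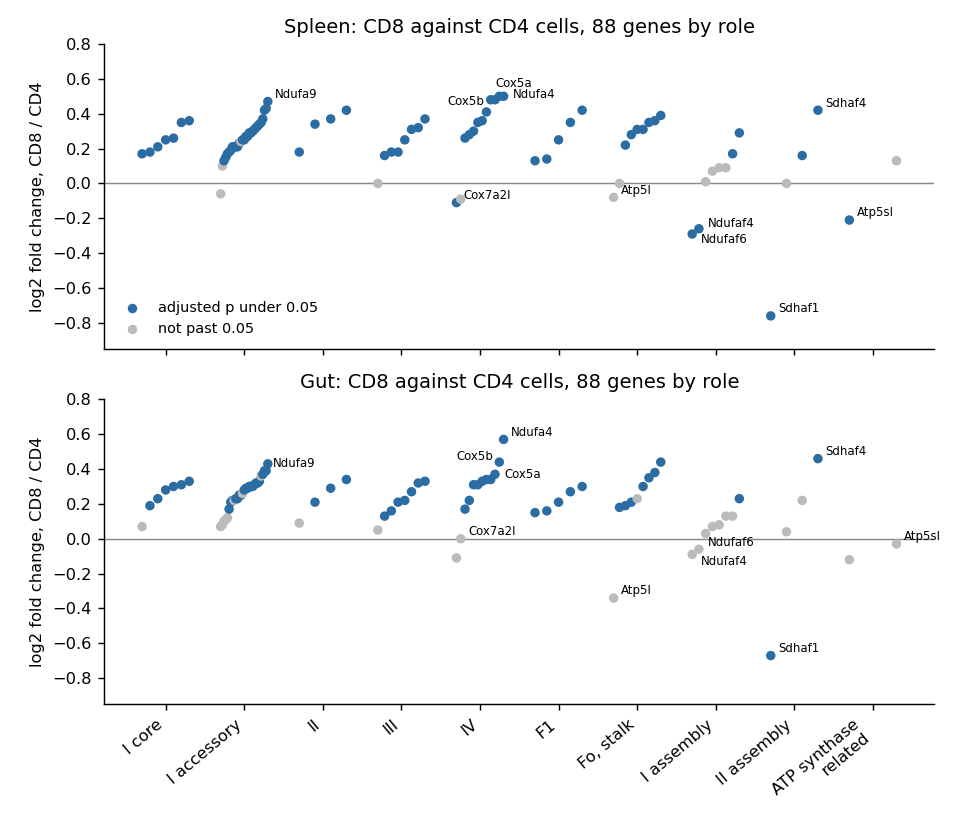
Log2 fold change of CD8 against CD4 cells (y axis) for each of the 88 genes, grouped by complex and role (x axis) and ordered by value within a group, in spleen (top, n = 6 against 6) and gut (bottom, n = 5 against 5). Blue points passed an adjusted p of 0.05; nearly all subunits lie above 0, while Sdhaf1 lies at -0.76 and -0.67.

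Complex I takes in electrons from NADH through a peripheral arm built around its core subunits. All 7 nuclear core subunits were higher in CD8 cells of the spleen and 6 of 7 in the gut. Ndufv1, which binds NADH and FMN, ran from 56.0 to 86.3 CPM in spleen CD4 libraries and from 73.9 to 110 CPM in spleen CD8 libraries. These ranges overlapped, but within matched pairs Ndufv1 was higher in CD8 cells in 6 of 6, by 0.28 to 0.40 (log2 fold change 0.35, SE 0.04, adjusted p = 1.29e-06). Ndufs1, the largest iron-sulphur subunit, was higher by 0.18 (SE 0.04) in spleen, and by 0.07 (SE 0.04, adjusted p = 0.184) in gut, where it did not pass.

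Of the 29 accessory subunits of complex I, 26 were higher in spleen and 21 in gut, and none was lower. Ndufa9, which sits near the quinone site, gave the smallest p-value of the 88 genes in both tissues. Its spleen CD4 libraries ran from 60.1 to 75.4 CPM and its spleen CD8 libraries from 88.2 to 101 CPM, with no overlap. The log2 fold change was 0.47 (SE 0.03, adjusted p = 2.42e-09) in spleen and 0.39 (SE 0.04, adjusted p = 1.53e-07) in gut. Ndufb7, on the membrane arm, was higher by 0.35 (SE 0.05) in spleen and 0.43 (SE 0.05) in gut. Ndufa6 did not pass in either tissue (-0.06, SE 0.05, and 0.10, SE 0.05), nor did the low-level Ndufab1 and Ndufb4.

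Assembly factors of complex I behaved unevenly. Ndufaf7 was higher in both tissues (0.29 and 0.23) and Ndufaf1 in spleen (0.17, SE 0.06). Ndufaf4 was lower in spleen CD8 cells, by -0.26 (SE 0.06, adjusted p = 0.00221), as was Ndufaf6, by -0.29 (SE 0.10, adjusted p = 0.0207). Neither passed in gut, where they stood at -0.09 and -0.06. The call of Ndufaf6 was lost without any 1 of 4 spleen libraries (CD4 anti-IL-2 of batch 181212, CD4 IgG of 181201, CD8 IgG of 181201 or 190306; adjusted p 0.0533 to 0.0749). The 4 others of the 8 (Ndufaf2, Ndufaf3, Ndufaf5 and Ndufaf8) did not pass in spleen or gut.

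In complex II, succinate dehydrogenase, subunits were higher in CD8 cells while 1 assembly factor was lower. All 4 subunits were higher in CD8 cells of the spleen and 3 in the gut. Sdhb, the iron-sulphur subunit, ran from 81.8 to 117 CPM in spleen CD4 libraries and from 113 to 150 CPM in spleen CD8 libraries, and rose by 0.42 (SE 0.04, adjusted p = 1.41e-07) in spleen and 0.34 (SE 0.05) in gut. Sdha, the flavoprotein subunit, was higher by 0.18 (SE 0.04) in spleen, and by 0.09 (SE 0.04, adjusted p = 0.0605) in gut.

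Sdhaf1, which helps to insert the iron-sulphur clusters of Sdhb, had the most negative fold change of the 88 genes in both tissues. Spleen CD4 libraries held from 19.1 to 26.2 CPM (median 21.7) and spleen CD8 libraries from 11.2 to 15.0 CPM (median 12.6). In gut, the CD4 libraries held 20.8, 19.6 and 30.7 CPM with anti-IL-2 and 19.5 and 26.0 CPM with IgG, and the CD8 libraries 15.0, 10.5 and 17.6 CPM with anti-IL-2 and 15.7 and 14.2 CPM with IgG. No CD8 library reached a CD4 library of the same tissue. Sdhaf1 fell by 0.76 on the log2 scale in spleen (SE 0.07, adjusted p = 1.04e-07), to 0.592 of the CD4 level, and by 0.67 in gut (SE 0.08, adjusted p = 2.55e-06). On mm10 it lies at chr7:30321406-30323895 on the minus strand, and 69.6% of its exon bases lie under the opposite-strand gene E130208F15Rik. The libraries were stranded, but the strand setting of the counting is not given in the sources used here, so reads of the 2 genes cannot be told apart and this value is uncertain. Sdhaf4, another assembly factor, was higher in CD8 cells by 0.42 (SE 0.09) in spleen and 0.46 (SE 0.10) in gut.

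Of the 8 subunits of complex III, 7 were higher in CD8 cells in each tissue. Uqcrfs1, the Rieske iron-sulphur protein, was higher by 0.37 (SE 0.04, adjusted p = 7.77e-07) in spleen and 0.21 (SE 0.05) in gut, and the core protein Uqcrc1 by 0.31 (SE 0.04) and 0.22 (SE 0.04). Uqcrh, the hinge protein, was the exception, at 0.00 (SE 0.05) in spleen and 0.05 (SE 0.05, adjusted p = 0.418) in gut.

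Complex IV, cytochrome c oxidase, had the largest median difference of the complexes with more than 4 subunits, 0.35 in spleen and 0.32 in gut, with 10 of its 12 subunits higher in each. Cox5a, a subunit on the matrix side, held from 63.4 to 103 CPM (median 79.8) in spleen CD4 libraries and from 97.7 to 134 CPM (median 112) in spleen CD8 libraries. In gut the CD4 libraries held 79.9, 82.8 and 120 CPM with anti-IL-2 and 89.5 and 96.1 CPM with IgG, and the CD8 libraries 120, 116 and 136 CPM with anti-IL-2 and 113 and 113 CPM with IgG. Only the anti-IL-2 CD4 libraries of batch 190306 (103 and 120 CPM) reached into the CD8 range. Cox5a was 1.41-fold higher in spleen CD8 cells (log2 fold change 0.50, SE 0.06, adjusted p = 5.08e-07) and 1.29-fold higher in gut CD8 cells (0.37, SE 0.06). Its gene lies at chr9:57521274-57532426 on the plus strand of mm10, and 42.6% of its 36-base stretches occur in other genes, among them pseudogenes. Cox6a1 (0.48 in spleen, 0.31 in gut), Cox5b (0.48 and 0.44) and the X-linked Cox7b (0.35 and 0.34) were also higher, of which Cox6a1 shares 20.3% and Cox5b 30.5% of these stretches.

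Ndufa4, first assigned to complex I and since found as a subunit of complex IV, separated the cell types in the spleen without overlap. Its spleen CD4 libraries held from 50.3 to 69.1 CPM (median 59.2) and its spleen CD8 libraries from 76.0 to 86.6 CPM (median 84.8). The log2 fold change was 0.50 (SE 0.06, adjusted p = 7.27e-07) in spleen and 0.57 (SE 0.06, adjusted p = 1.01e-06) in gut, the most positive of the 88 genes there. The gene lies at chr6:11900292-11907497 on the minus strand of mm10 and shares 0.87% of its 36-base stretches with other genes. Cox7a2l, counted here among the subunits of complex IV, was the only subunit with a negative call. It held from 72.5 to 83.8 CPM in spleen CD4 libraries and from 68.5 to 75.8 CPM in spleen CD8 libraries, and fell by 0.11 (SE 0.04, adjusted p = 0.032) in spleen, while in gut its value was 0.00 (SE 0.05). This call was lost without any 1 of the 6 spleen IgG libraries or without the spleen CD4 anti-IL-2 library of batch 181201 (adjusted p 0.0514 to 0.0997), and without the 5 CD8 IgG libraries the value was -0.05 (adjusted p = 0.48).

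**Figure D3:**
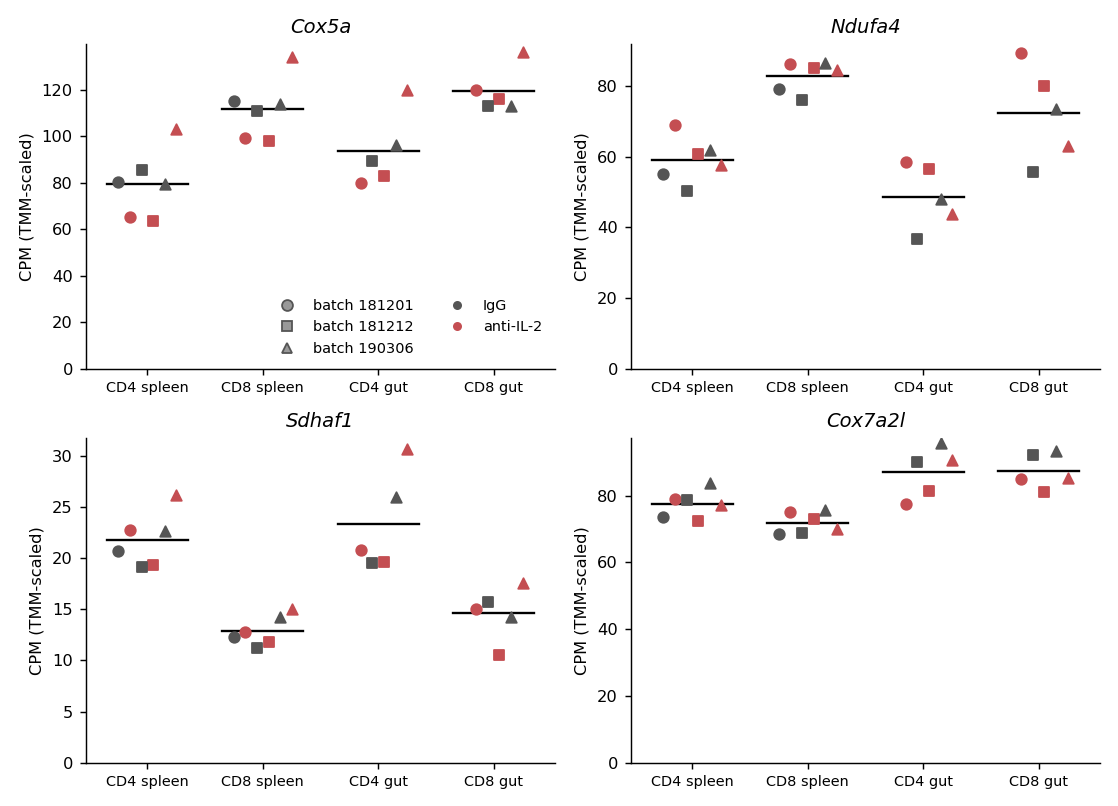
CPM (y axis, scaled by TMM, from 0) of Cox5a, Ndufa4, Sdhaf1 and Cox7a2l in each library, by cell type and tissue; shape marks the batch, colour the treatment and the line the mean. CD8 means of Cox5a (112 in spleen, 120 in gut) lie above CD4 means (79.4 and 93.7), and those of Sdhaf1 (12.9 and 14.6) below CD4 means (21.8 and 23.3).

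ATP synthase followed the subunits of the chain. All 5 F1 subunits were higher in CD8 cells in both tissues. Atp5b ran from 570 to 769 CPM in spleen CD4 libraries and from 777 to 1020 CPM in spleen CD8 libraries, with no overlap, and was higher by 0.42 (SE 0.04, adjusted p = 7.62e-08) in spleen and 0.30 (SE 0.04) in gut. Atp5a1 was higher by 0.35 (SE 0.03) and 0.21 (SE 0.04). Of the 9 subunits of the membrane part and the stalks, 7 were higher in each tissue, with Atp5o, a stalk subunit that shares 43.8% of its 36-base stretches with other genes, at 0.39 and 0.35, and Atp5g3, which encodes the proton-carrying c ring, at 0.31 and 0.18. The 2 others, Atp5g1 and Atp5l, are among the low-level genes that share sequence. Of 2 members placed here by their symbol and not as subunits, Atp5sl was lower in spleen CD8 cells (-0.21, SE 0.06) and Atp5s did not pass.

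Other lists moved beside the members. All 30 proliferation genes listed were higher in spleen CD8 cells (median 1.15) and 29 of 30 in gut (median 0.73), and the part of proliferation in the respiratory chain difference was not tested. Of 14 TCA cycle genes, 12 were higher and 2 lower in spleen (median 0.22), and 8 higher and 1 lower in gut (median 0.12). Of 17 glycolysis genes, 9 were higher and 4 lower in spleen and 2 higher and 2 lower in gut. A further list outside the symbol rule held mostly assembly factors of the chain, with Cycs, Cyc1, Atpif1 and Lrpprc, which are not assembly factors. Of its 40 genes tested, 17 were higher and 3 lower in spleen and 14 higher and 2 lower in gut. Regulators of mitochondrial gene expression did not share this direction: of 14 tested, 4 were higher and 8 lower in spleen, and 4 higher and 3 lower in gut. Of 10 macrophage markers, 1 was higher and 4 were lower in spleen CD8 cells, with summed levels of 14.7 to 219 CPM in CD4 and 32.2 to 106 CPM in CD8 libraries. In gut 1 was higher. None of the 10 was at 0 in all libraries of a population. B cell markers summed to 6.17 to 15.2 CPM in spleen CD8 against 1.6 to 3.6 CPM in spleen CD4 libraries, and to 9.24 to 18.7 against 1.49 to 3.46 CPM in gut, without overlap. Most of this was Cd79b. Of 8 epithelial markers, 2 were higher and 1 lower in spleen CD8 cells (8.3 to 11.5 against 5.83 to 7.77 CPM, with 3 at 0 in all spleen CD8 libraries) and 3 were higher in gut. The part of these cells was not tested.

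Without batch 190306, 64 of the 88 genes were higher and 3 lower in spleen CD8 cells, and 60 higher and 1 lower in gut. Scaled by total counts alone, the counts were 63 and 5 in spleen and 62 and 1 in gut. Without the block of batch and treatment, 46 genes passed in spleen and 33 in gut, with the same medians of 0.25 and 0.23.

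Because these genes moved together, their promoters were searched for sites of 2 factors known to drive nuclear genes of oxidative phosphorylation, NRF1 (GCGCA, any base, then GCGC) and ETS factors such as GABP (CCGGAAG), and for the core of YY1 (AAGATGGC). The search covered both strands of the 250 bases before each start in RefSeq's promoters of GRCm38.p6, the build of mm10, which hold 78 promoters of 73 of the 88 genes. The NRF1 letters were present in 14 promoters (17.9%), against 7.9% of the promoters of genes tested and 3.74% of all promoters. Counted by gene, NRF1 letters were present in 13 (17.8%), against 9.28% and 4.23%, since overlapping promoters of Ndufa5 hold the same match. ETS letters were present in 16 promoters (20.5%), against 13.5% and 6.91%, and YY1 letters in 1 (1.28%), against 2.07% and 1.56%. By gene the ETS shares were 21.9%, against 15.8% and 7.83%, and the YY1 shares 1.37%, against 2.52% and 1.83%. Median GC content over these windows was 57.2% for the members and 59.6% for the genes tested.

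Each line below gives 30 bases on the strand of the gene, 5′ to 3′, with the matched letters in capitals. They were chosen to show sites of members that were higher in CD8 cells (Sdha, Sdhd, Cox6a1, Ndufb7 and Cox6b1) beside one that was lower in spleen CD8 cells (Ndufaf4). CTTCCGG is the ETS motif read on the opposite strand.
Sdha, NRF1, minus strand, chr13:74350319-74350348: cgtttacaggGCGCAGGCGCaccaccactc
Sdha, NRF1, minus strand, chr13:74350276-74350305: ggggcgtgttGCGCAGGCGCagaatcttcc
Sdha, NRF1, minus strand, chr13:74350241-74350270: cgacacccgcgcgactcggtGCGCAAGCGC
Sdhd, NRF1, minus strand, chr9:50603909-50603938: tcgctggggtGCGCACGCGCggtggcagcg
Sdhd, ETS, minus strand, chr9:50603877-50603906: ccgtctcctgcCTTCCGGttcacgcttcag
Cox6a1, NRF1, minus strand, chr5:115349056-115349085: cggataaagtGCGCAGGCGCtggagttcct
Cox6b1, ETS, minus strand, chr7:30626124-30626153: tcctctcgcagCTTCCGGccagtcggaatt
Ndufb7, ETS, plus strand, chr8:83566727-83566756: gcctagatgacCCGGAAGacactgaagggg
Ndufaf4, NRF1, plus strand, chr4:24897960-24897989: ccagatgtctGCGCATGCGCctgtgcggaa

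Among the 26 genes with NRF1 or ETS letters, 20 were higher and 1 lower in spleen CD8 cells (median 0.23). Among the 47 genes with neither, 38 were higher and 2 lower (median 0.29). In gut the counts were 15 and 0 of 26 and 35 and 1 of 47. So genes were higher in CD8 cells with and without these letters, and the single member with NRF1 letters that was lower in spleen, Ndufaf4, carries the site shown above. A match is a description of the letters and not a measured binding site.

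Between the tissues the differences were smaller and depended on the scaling. With TMM, 29 of the 88 genes were higher in gut CD4 cells than in spleen CD4 cells and 2 lower (median 0.08), against 26.6% higher and 22.7% lower among all genes tested (49.3% in either direction). In CD8 cells 27 were higher and 7 lower (median 0.05), against 24.8% and 23% (47.8% in either direction), so the share that was higher was near the background. Scaled by total counts, the split was 10 higher and 11 lower in CD4 cells and 18 higher and 9 lower in CD8 cells, so no direction can be given for the genes as a whole. In both cell types 20 genes were higher in gut with TMM. For none of the 88 did the tissue difference itself differ between CD8 and CD4 cells by edgeR, where 2.34% of all genes were higher and 2.31% lower (4.65% in either direction). Of the members, 8 had an unadjusted p under 0.05, limma voom called 0 and DESeq2 called 1. Without 1 library, an anti-IL-2 library of gut CD8 cells in batch 181201, edgeR called 3. Without the block of batch and treatment, 7 genes passed in CD4 cells and 4 in CD8 cells.

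The genes with the smallest p-values came from several complexes. Atp5d, the delta subunit of F1, was higher in gut by 0.27 (SE 0.03, adjusted p = 2.02e-06) in CD4 cells and 0.30 (SE 0.03, adjusted p = 5.53e-07) in CD8 cells. Its levels ran from 123 to 207 CPM in spleen CD4 libraries and were 158, 149 and 260 CPM with anti-IL-2 and 164 and 219 CPM with IgG in gut CD4 libraries. These ranges overlapped, since both libraries of batch 190306 were high in each tissue. Ndufa10, an accessory subunit of complex I, was higher by 0.46 (SE 0.06, adjusted p = 7.48e-06) in CD4 cells and 0.27 (SE 0.06) in CD8 cells, and was higher in gut in 5 of 5 matched pairs in each. Cox8a was higher by 0.38 (SE 0.05) and 0.30 (SE 0.05), and Cox4i1 by 0.29 (SE 0.04) and 0.18 (SE 0.04). In CD8 cells, Ndufa6 (0.37, SE 0.05), Ndufa13 (0.33, SE 0.04) and Cox7a2l (0.27, SE 0.04) were also among the leading genes, as was the complex I assembly factor Ndufaf3 by size (0.40, SE 0.08).

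By complex, complex IV had 8 subunits higher and 1 lower of 12 in CD4 cells and 6 higher and 1 lower in CD8 cells. Complex I had 12 of its 36 nuclear subunits higher in CD4 cells and 11 in CD8 cells, with none lower. Over all genes 26.6% and 24.8% were higher and 22.7% and 23% lower. The share that was higher was near this background in complex I and above it in complex IV, which has only 12 subunits here. The share that was lower was below it in both. The split of all 88 genes changed with the scaling, as given above. In complex II, 0 of 4 subunits passed in CD4 cells by edgeR, and in CD8 cells Sdhd (-0.14, SE 0.04) and Sdha (-0.12, SE 0.04) were lower in gut. These counts were not tested against each other.

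Lower in gut in both cell types were Ndufa4 and Ndufaf4. Ndufa4 held 58.5, 56.4 and 43.7 CPM with anti-IL-2 and 36.8 and 48.1 CPM with IgG in gut CD4 libraries, against 50.3 to 69.1 CPM in spleen. It was lower in gut in 5 of 5 matched pairs in CD4 cells and in 4 of 5 in CD8 cells, by -0.31 (SE 0.06, adjusted p = 0.000551) and -0.23 (SE 0.06, adjusted p = 0.00431). Ndufaf4 was lower by -0.50 (SE 0.07, adjusted p = 1.41e-05) and -0.34 (SE 0.07). Atp5s, a low-level gene at a mean of 2.22 CPM, was lower in gut CD8 cells (-0.57, SE 0.16).

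**Figure D4:**
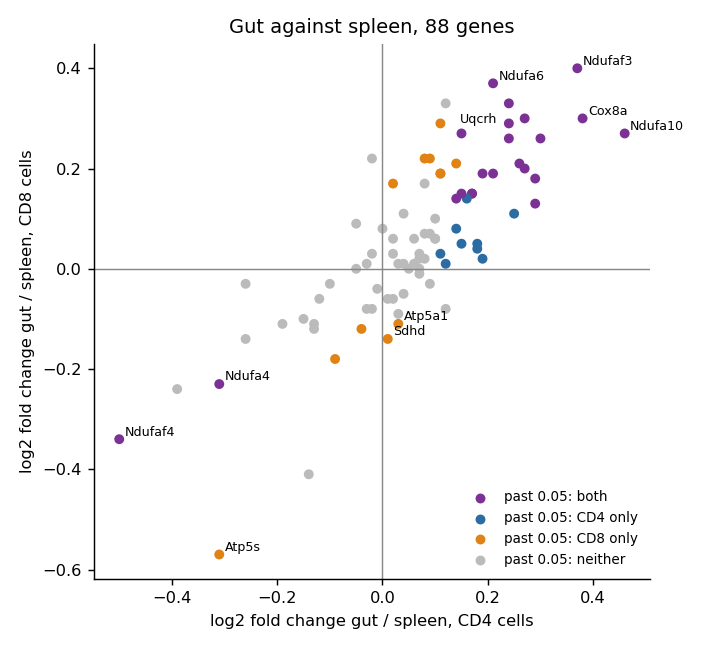
Log2 fold change of gut against spleen for the 88 genes in CD4 cells (x axis) and CD8 cells (y axis), scaled by TMM; colour shows in which cell type an adjusted p of 0.05 was passed. Ndufa10 (0.46 and 0.27) lies at the upper right, and Ndufaf4 (-0.50 and -0.34) and Ndufa4 (-0.31 and -0.23) at the lower left; the split of the other genes changes with total-count scaling.

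Markers of other cells moved with tissue. In gut, 7 of 8 epithelial markers were higher in both cell types, with summed levels of 18.3 to 99.6 CPM in gut CD4 and 47.2 to 131 CPM in gut CD8 libraries against 5.83 to 11.5 CPM in spleen. Most of the 99.6 CPM was Cdh1 (89 CPM), with Krt8 at 1.75 and Fabp2 at 0 CPM in that library. In the library at 131 CPM, Cdh1 held 34.8 CPM. All 4 pancreas markers were higher in both, with up to 28.7 CPM in gut, 3 and 4 of 4 tested fibroblast markers, and 3 and 4 of 4 fat cell markers. None of the markers of these 4 lists was at 0 in all gut libraries of a cell type. Of 18 stress and immediate early genes, 12 were higher and 1 lower in gut CD4 cells and 13 higher and 1 lower in gut CD8 cells. Of 10 macrophage markers, 1 was higher and 6 were lower in gut CD4 cells, and none passed in gut CD8 cells by edgeR. Of 17 glycolysis genes, 11 were higher and 1 lower in gut CD4 cells and 9 higher and 3 lower in gut CD8 cells. Of 30 proliferation genes, 25 were lower in gut CD8 cells and 1 was higher in gut CD4 cells. Their part in the tissue differences was not tested.

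Anti-IL-2 against IgG gave no call when the 3 batches were fitted together. No member passed in any of the 4 populations by edgeR, limma voom or DESeq2, and among all genes tested 0% passed by edgeR; 1, 0, 1 and 5 members had an unadjusted p under 0.05 in spleen CD4, spleen CD8, gut CD4 and gut CD8 cells. DESeq2 called 0, 0, 8 and 18 genes in all. Within single batches the labelled differences were not alike. Treatment labels were used as given, and whether those of batch 190306 correspond to those of the other batches was not tested, so every treatment value that includes this batch rests on the labels. The median over the 88 genes was 0.03 and 0.02 in batch 181201 (spleen CD4 and CD8 cells). In batch 181212 it was -0.14 and -0.07 in spleen and -0.07 and -0.03 in gut CD4 and CD8 cells. In batch 190306 it was 0.10, 0.06, 0.13 and 0.09. Each batch has 1 library per group, so these within-batch values carry no test of their own.

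**Figure D5:**
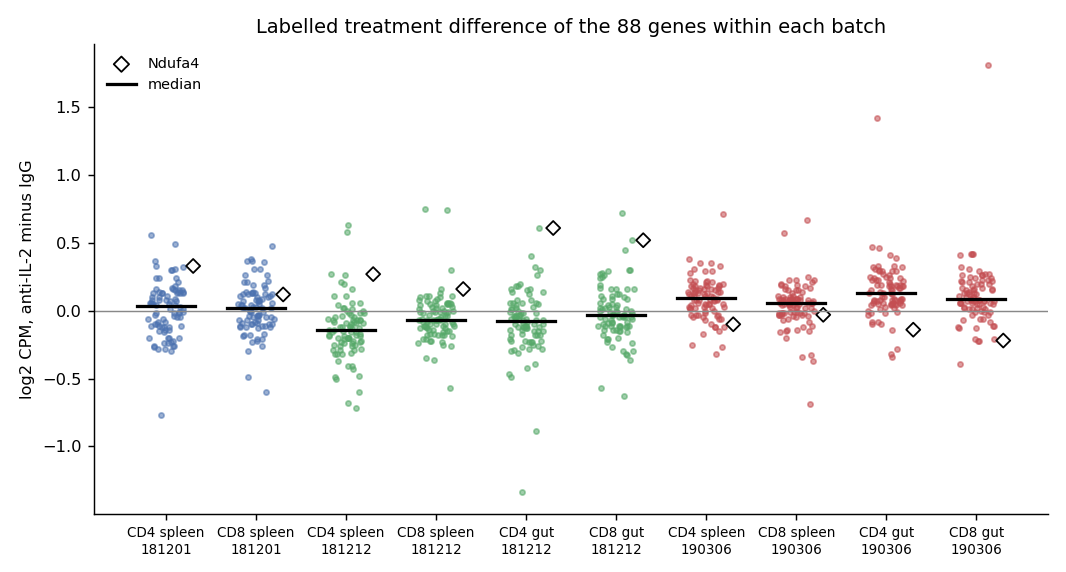
Difference in log2 CPM, anti-IL-2 minus IgG as labelled (y axis), for each of the 88 genes in each population and batch (x axis; 1 library against 1). Black lines mark medians, which lie above 0 in the 4 pairs of batch 190306 (0.06 to 0.13), and diamonds mark Ndufa4, which lies above 0 in the other 6 pairs and below 0 in batch 190306.

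A test of that difference between batches called 28 of the 88 genes. In batch 190306, 25 had a higher and 3 a lower labelled treatment difference than in the other batches. Over all genes these shares were 19.7% and 18.5% (38.2% in either direction). With both directions pooled, the members were thus called no more often than genes at large. Taken apart, the share that was higher was above that background and the share that was lower below it. The 4 libraries of each treatment in batch 190306 stand in this test as replicates, although libraries of the same batch and treatment deviated together (median correlation 0.7, against 0.04 for the same batch and other treatment), so its p-values are too small for a statement about treatment. Scaled by total counts, the counts were 16 and 5. All 4 pairs of batch 190306 had the anti-IL-2 library higher for 40 members and lower for 2, against 21.3% and 18.2% of all genes. In the 6 pairs of the other batches, 2 members were higher in every pair and 18 lower, against 12.4% and 12.5%.

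Ndufv1 had the smallest p-value. Its labelled difference was 0.16 to 0.42 in the 4 pairs of batch 190306 and -0.24 to -0.19 in the 6 other pairs, and the test gave 0.48 (SE 0.07, adjusted p = 1.77e-05). Cox5a showed it in its levels: in spleen CD4 cells IgG libraries held 80.2, 85.4 and 79.3 CPM in batches 181201, 181212 and 190306, and anti-IL-2 libraries 65.3, 63.4 and 103 CPM. In spleen CD8 cells the IgG libraries held 115, 111 and 114 CPM and the anti-IL-2 libraries 99.1, 97.7 and 134 CPM. So in spleen Cox5a was lower with anti-IL-2 than with IgG in 2 batches and higher in batch 190306. Over all populations the test gave 0.49 (SE 0.09, adjusted p = 0.000283). Uqcrfs1 (0.39, SE 0.07), Atp5d (0.33, SE 0.05) and Sdhd (0.34, SE 0.06) had the same sign.

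The opposite sign was found in 3 genes. Ndufa4 was higher with anti-IL-2 in the 6 pairs of batches 181201 and 181212, by 0.12 to 0.61, and lower in the 4 pairs of batch 190306, by -0.22 to -0.03 (-0.47, SE 0.09, adjusted p = 0.00049). Sdhaf4 (-0.58, SE 0.14) and Sdha (-0.22, SE 0.06) were the others.

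Other readouts moved with the same contrast. Of 30 proliferation genes, 22 had a higher and 0 a lower labelled difference in batch 190306 (median 0.65), and of 10 macrophage markers 9 had a lower one, as had 4 of 4 tested fibroblast and 4 of 4 pancreas markers. The summed ranges that follow pool spleen and gut libraries. Batch 181201 had no gut IgG library, so its IgG and anti-IL-2 ranges differ in tissue as well as treatment. In batch 181212 fibroblast markers summed to 0.23 to 0.665 CPM with IgG and 0.412 to 16 CPM with anti-IL-2, and in batch 181201 to 0.233 to 0.429 and 0.712 to 14.4 CPM. In batch 181212 pancreas markers summed to 0 to 0.333 and 0.491 to 18.9 CPM, and in batch 181201 to 0.233 to 0.536 and 0.917 to 28.7 CPM. In batch 190306 fibroblast markers summed to 0.296 to 2.37 CPM with IgG and 0.0878 to 0.798 CPM with anti-IL-2, and pancreas markers to 0.127 to 2.25 and 0.233 to 0.754 CPM. Macrophage markers summed to 31.8 to 169 CPM with IgG and 15.4 to 54.7 CPM with anti-IL-2 in batch 190306. In batch 181212 they summed to 14.7 to 42.6 CPM with IgG and 30.9 to 96.4 CPM with anti-IL-2, and in batch 181201 to 41.0 to 55.4 and 62.5 to 219 CPM. None of the 10 macrophage markers was at 0 in all libraries of a batch and treatment. Their part in the members' differences was not tested.

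Fitted without batch 190306, on 14 libraries and 13073 genes, the treatment comparison called a few members. That batch was left out because earlier results of these data had shown its labelled treatment difference running the other way. The calls therefore describe the batches that were kept and are no independent evidence of a treatment difference. In spleen CD4 cells 3 were higher and 11 lower with anti-IL-2, against 9.8% and 10.3% of all genes (20.1% in either direction), so the share that was higher was below the background and the share that was lower near it. In spleen CD8 cells 0 were higher and 3 lower, against 6.06% and 6.08% (12.1%). In gut CD4 cells 1 was higher and 5 lower, against 6.04% and 5.68% (11.7%), and in gut CD8 cells 1 was higher and 0 lower, against 5.51% and 5.22% (10.7%). That left 1 IgG library in each gut population, which was assumed to vary like the other groups. Over the 88 genes the medians were -0.05, -0.04, -0.07 and 0.03.

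Ndufa4 was the gene that passed in most populations. It held 55 and 50.3 CPM with IgG against 69.1 and 60.7 CPM with anti-IL-2 in spleen CD4 cells, and 36.8 CPM against 58.5 and 56.4 CPM in gut CD4 cells. In gut CD8 cells it held 55.7 CPM with IgG against 89.3 and 80.1 CPM with anti-IL-2. No anti-IL-2 library of these batches was as low as an IgG library of the same population. It was higher by 0.31 (SE 0.07, adjusted p = 0.00552), 0.60 (SE 0.09, adjusted p = 0.00135) and 0.55 (SE 0.09, adjusted p = 0.00164), and by 0.13 (adjusted p = 0.243) in spleen CD8 cells, where it did not pass. Without the spleen CD4 anti-IL-2 library of batch 181201 its value in those cells was 0.26 (adjusted p = 0.0893).

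Also higher in spleen CD4 cells were Sdha (0.23, SE 0.05) and Sdhaf4 (0.59, SE 0.15). Lower there were Cox5a (-0.35, SE 0.06, adjusted p = 0.00142), Uqcrfs1 (-0.28, SE 0.06), Ndufa10 (-0.33, SE 0.07), Ndufb7 (-0.34, SE 0.08) and Atp5g3 (-0.22, SE 0.06), with Atp5d, Cox5b, Ndufs7, Ndufv1, Sdhd and Uqcrq. In spleen CD8 cells the 3 lower genes were Uqcrfs1 (-0.27), Cox5a (-0.21) and Atp5g3 (-0.20). In gut CD4 cells they were Ndufa10 (-0.46, SE 0.09), Ndufb10 (-0.35), Cox4i1 (-0.25), Ndufv1 (-0.30) and Atp5sl (-0.37). Among the 30 proliferation genes, 27 were lower in spleen CD4 cells and 25 in spleen CD8 cells, while 8 were higher in gut CD4 and 10 in gut CD8 cells. In gut, 3 of 4 pancreas and 3 of 4 fat cell markers were higher in both cell types, with 3 of 8 epithelial and 3 of 5 fibroblast markers in CD4 cells and 5 of 8 and 4 of 5 in CD8 cells. Batch 181212, whose summed levels are given above, is the one of these batches with both gut groups. In spleen CD4 cells 1 of 10 macrophage markers was higher. The part of these lists in the members' differences was not tested.

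These counts rest on few libraries. In spleen CD4 cells, 14 calls became 4 without either anti-IL-2 library or without the IgG library of batch 181212, and 8 without the IgG library of batch 181201. In spleen CD8 cells, 3 calls became 0 without the anti-IL-2 library of batch 181201 or either IgG library of those cells, and 1 without their anti-IL-2 library of batch 181212 or either gut CD4 anti-IL-2 library. In gut CD4 cells, 6 calls became 2 without their anti-IL-2 library of batch 181201, and 3 without that of batch 181212 or any 1 of the 4 anti-IL-2 libraries of spleen. In gut CD8 cells, 1 call became 2 without their anti-IL-2 library of batch 181201 and 4 without that of batch 181212. With total-count scaling the calls in gut CD4 cells were 1 higher and 2 lower. Without the batch term, 9 and 1 members passed in CD4 and CD8 cells of spleen and 2 and 1 in those of gut. The 4 populations share their batches, so their calls are not independent of each other.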

How the data were processed

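RNA-seq libraries of sorted donor T cells were compared from 1 table that the authors deposited. The authors deposited raw read counts per gene symbol, made before deposit with TopHat2 and HTSeq 0.9.1 on mm10 per the submitters' processing notes. The annotation, strand setting and filters are not given in the sources used here. The labels' protocols name a stranded mRNA kit. Totals were 14628806 to 24518362 counts per library.

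Genes were filtered with filterByExpr, scaled by TMM and fitted in edgeR 4.0.16 (R 4.3.3; quasi-likelihood, robust), with Benjamini-Hochberg adjustment over all genes tested and a threshold of 0.05. Log2 CPM had a prior count of 2. Tissue and cell type were compared in a model of 4 populations and a block of batch and treatment (22 libraries, 12841 genes, 13 residual degrees of freedom), which also gave the difference between batches. Treatment was compared with 8 groups and batch (12 residual degrees of freedom) and again in the 14 libraries without batch 190306 (5 residual degrees of freedom).

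The batch pairing comes from the labels. Over 9595 genes, deviations from the mean of each group of cell type, tissue and treatment were correlated between libraries of different groups. They correlated at 0.48 to 0.83 in 31 pairs of the same batch and treatment. Values were -0.07 to 0.22 in 40 pairs of the same batch and other treatment. In 140 pairs of other batches they were -0.74 to 0.49. Deviations sum to 0 within each group of 2 or 3 libraries, so values between batches tend below 0 by construction. That last range is therefore no check of the pairing. No 2 libraries were identical.

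On simulated data the test recovered 38% of 1.2-fold and 98% of 1.5-fold changes between spleen cell types, with 6 false calls among 12402 genes. Without batch 190306 it recovered 2% and 59% of the treatment changes in spleen CD4 cells, with 4 false calls among 12439 genes. The simulated counts held no batch or block effect, and only 100 genes per fold were changed, none of them at a low level. These rates therefore describe such simulated data and may not hold for the libraries compared here.

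The series title also names recipients lacking PD-L1, not analysed here. Alternatives were DESeq2 1.42.0, limma voom 3.58.1, other size factors, no filter, no block, 8 groups with batch, no batch 190306, no CD8 IgG libraries and each library left out. Members, lists and tests were chosen with earlier results of these data known. In each comparison the named genes were the 5 members per direction with the smallest p among those past 0.05, with a fixed list of core subunits and isoforms. Ndufaf3 and members named as exceptions, as low-level genes or to complete a short list were added for their values. Positions came from GENCODE M21, where 87 of 88 members matched, and promoters from RefSeq. Macrophage, B cell, erythroid, epithelial, fibroblast, fat, pancreas and muscle markers were used to check for other cells.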

Additional observations from a re-analysis of the deposited data

Results flagged for a closer look

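The labelled treatment difference of batch 190306 differed from that of batches 181201 and 181212 in 28 of the 88 genes by edgeR's quasi-likelihood test of the difference (adjusted p under 0.05), where 38.2% of all 12841 genes tested were called. Among the genes named there, the difference of differences was 0.48 for Ndufv1, 0.33 for Atp5d, 0.39 for Uqcrfs1, 0.34 for Sdhd and 0.49 for Cox5a on the log2 scale. It was -0.47 for Ndufa4, -0.58 for Sdhaf4 and -0.22 for Sdha. Each of the 4 populations has 1 library per treatment in batch 190306.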

How the results depend on the processing

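Among 198 single-gene results, none changed sign past the threshold under any of the settings run. Of those that each setting could give, 44 of 178 lost their call without the block, 15 of 198 with total counts, 14 of 104 with 8 groups and batch, 10 of 104 without batch 190306, 9 of 84 without the 5 CD8 IgG libraries and 7 of 198 with DESeq2. Counts of called members changed as follows. Without the replicate block (batch and treatment, or batch alone in the treatment fits), gut against spleen gave 7 in CD4 and 4 in CD8 cells, CD8 against CD4 gave 46 in spleen and 33 in gut, and treatment without batch 190306 gave 9 and 1 in CD4 and CD8 cells of spleen and 2 and 1 in those of gut; the treatment fits of all batches and the CD8 minus CD4 tissue difference stayed at 0 without the block. For gut against spleen in CD8 cells, the fit of 8 groups with batch gave 17 calls and the fit without the 5 CD8 IgG libraries 22. DESeq2 gave 1 for the CD8 minus CD4 tissue difference, and without batch 190306 it gave 7 and 1 in CD4 and CD8 cells of spleen and 3 in gut CD4 cells. Total-count scaling gave 1 in CD8 cells of spleen and 3 and 3 in CD4 and CD8 cells of gut, no filter gave 1 in spleen CD8 cells, and DESeq2 size factors gave 2 in gut CD8 cells. The cause of these changes was not tested.

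Leaving out 1 library at a time gave 26 to 33 and 27 to 35 for gut against spleen in CD4 and CD8 cells, 0 to 3 for their difference, 67 to 75 and 59 to 64 for CD8 against CD4 in spleen and gut, 23 to 34 for the difference between batches, and 0 to 0 for treatment in all batches. Without batch 190306 it gave 4 to 14, 0 to 3, 2 to 6 and 1 to 4 in spleen CD4, spleen CD8, gut CD4 and gut CD8 cells. The gut contrasts of that fit could not be fitted without their lone IgG library. The difference between batches was not run without the block. With 5 residual degrees of freedom, small treatment differences were mostly not detectable.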
